A study of Mus musculus with 6 samples.

Results

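The 10 genes of MHC class II antigen presentation described here were H2-Aa, H2-Ab1, H2-Eb1, Cd74, Ciita, Rfx5, H2-DMa, H2-DMb1, H2-Oa and H2-Ob. They were taken by gene symbol from a table of 55401 genes, and all 10 were found in it. The set was chosen by differences seen earlier between the same libraries, in which H2-Aa, Cd74, Ciita, H2-Eb1 and H2-Ab1 stood out, so the differences of the members are given as a description, and the fit across all genes is not read as a test of them.

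RNA was sequenced from mouse T cells cultured with macrophage supernatant, in 2 groups of 3 samples. In the NFL group the macrophages had been activated with NFL, the neurofilament light chain of the axonal cytoskeleton, at 5 µg/mL for 24 h. According to the design text this NFL was prepared from freeze-thawed sciatic nerve. The study's methods instead name a purchased NFL protein for the mice and describe freeze-thawed nerve lysate as a separate treatment. They give lower NFL doses for cultured cells. Which preparation was used for these libraries cannot be told from these sources. In the control group the macrophages were untreated. Both groups shared every other step: the macrophages were grown for 7 days in 50 ng/mL M-CSF from CD11b-selected spleen cells, the T cells were selected from spleen with beads against CD8a, and T cells received supernatant at 50% in medium holding 2% serum. The methods name female C57BL/6 and NOD-SCID mice aged 6 to 8 weeks for the study as a whole, without saying which gave these spleens. The labels give no genetic modification or sequencing batch for either group, and nothing states whether the replicates came from separate mice, so their spread may be technical. All 6 libraries went against the label in part: Cd8a and Cd8b1 were lower than Cd4, Cd2 had no reads, and 1 variable segment, Trbv1, took nearly all T-cell receptor β-chain counts, where T cells of a spleen use many segments. The class II levels below are therefore those of the sequenced cells, whose identity as spleen CD8+ T cells these markers do not bear out.

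MHC class II molecules are pairs of an α and a β chain that carry peptides from the endosome to the cell surface, where CD4 T cells read them. The invariant chain fills the peptide groove during transport, the H2-DM pair exchanges its last fragment for peptide, and the H2-O pair restrains H2-DM. Transcription of these genes depends on the transactivator Ciita, which binds to a fixed platform of RFX, CREB and NF-Y proteins on the X and Y boxes of the promoters. B cells, dendritic cells and macrophages are the classical class II-expressing cells, and interferon-γ is the best known inducer of Ciita in other cells. Mouse T cells are usually described as expressing little class II.

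The X and Y boxes are shown first because they are the DNA element on which Ciita acts. Some members that were higher and some that were not carry their letters. RefSeq promoter windows of GRCm38.p6, covering 250 bases before to 50 bases after each start site, were matched by symbol to 7 of the 10 members, without H2-Ab1, Cd74 and Ciita. H2-Aa, H2-Eb1, H2-DMb1, H2-Oa and H2-Ob held a Y box, ATTGG, 43 to 61 bases before the start, and the letters GNAAC 25 to 28 bases ahead of it. In the stretches below, written 5′ to 3′ on the strand of the gene, the first capitals mark GNAAC and the second mark ATTGG.
H2-Aa, chr17:34287857-34287916, minus strand: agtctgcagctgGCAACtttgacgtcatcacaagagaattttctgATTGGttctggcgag
H2-Eb1, chr17:34305763-34305822, plus strand: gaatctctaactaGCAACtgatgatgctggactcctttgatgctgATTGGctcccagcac
H2-DMb1, chr17:34153085-34153144, plus strand: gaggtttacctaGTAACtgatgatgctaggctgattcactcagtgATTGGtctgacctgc
H2-Oa, chr17:34092291-34092350, plus strand: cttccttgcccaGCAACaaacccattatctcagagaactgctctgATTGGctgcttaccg
H2-Ob, chr17:34238803-34238862, plus strand: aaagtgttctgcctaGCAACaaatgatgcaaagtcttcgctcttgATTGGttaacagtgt

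Of all 32851 promoter windows, 2.96% held GNAAC followed by ATTGG after 18 to 35 bases on either strand. This pair of letters was written down after the sequences had been read. The pair set before, AGNNACNG followed by ATTGG after 15 to 50 bases, occurred in 1.82% of all windows and in H2-Eb1 and H2-DMb1 among the members. Searched alone on both strands, AGNNACNG occurred in 50.9% of all windows, ATTGG in 37.4% and the interferon-γ-activated sequence TTCNNNGAA in 8.30%, and no member window held the last of these. Neither window of H2-DMa nor the window of Rfx5 held either pair. The pair GNAAC and ATTGG was thus carried by higher members (H2-Aa and H2-Eb1), members with overlapping groups (H2-DMb1 and H2-Oa) and a member with no reads (H2-Ob). It was absent from Rfx5, whose groups were separate, and from H2-DMa, whose groups overlapped.

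The antigen-presenting chains, the invariant chain and the transactivator were higher with NFL-activated macrophage supernatant, by 1.33-fold (H2-Ab1) to 1.84-fold (H2-Aa). The H2-DM chains H2-DMa and H2-DMb1 and the H2-O chain H2-Oa overlapped between the groups. H2-Ob had no reads. In such bulk samples, a change in the number of cells of a type and a change in RNA per cell cannot be told apart. Levels are CPM, counts scaled to a common total, on TMM-scaled library sizes. Log2 fold changes are NFL over control, with a standard error (SE) calculated from the fold change and the F statistic of the edgeR test.

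H2-Aa encodes the α chain of the I-A molecule and lies on the minus strand of chromosome 17 from 34282744 to 34287823 (GRCm38). It had 42.0, 37.0 and 39.7 CPM in the control libraries and 76.3, 71.3 and 71.9 CPM in the NFL libraries. The lowest NFL library stood well above the highest control library, and the log2 fold change of 0.88 (SE 0.056) was the largest among the members.

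H2-Ab1 encodes the β chain that pairs with the H2-Aa product and lies on the plus strand, from 34257689 to 34269419. Its level was 34.4, 35.02 and 36.05 CPM with control supernatant and 51.4, 44.5 and 44.7 CPM with NFL supernatant. NFL replicate 1 was the highest library and the groups did not overlap (log2 fold change 0.41, SE 0.064). The ratio of H2-Aa to H2-Ab1 counts was 1.22, 1.06 and 1.10 in the control libraries and 1.49, 1.60 and 1.61 in the NFL libraries, so the partner chains were not higher by the same factor in these libraries.

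H2-Eb1 encodes the β chain of the I-E molecule (chromosome 17, 34305867 to 34316674, plus strand). It had 31.3, 29.8 and 30.4 CPM against 45.03, 38.9 and 42.5 CPM, with no overlap and a log2 fold change of 0.46 (SE 0.067). Its ratio to H2-Ab1 was 0.869 ± 0.0371 with control and 0.900 ± 0.0425 with NFL supernatant (SD, n = 3 each), which overlapped. The α chain of I-E, which some inbred strains do not make, is annotated as H2-Ea-ps, and it had 4 counts in 1 NFL library and no counts in the other 5.

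Cd74, the invariant chain, was the most abundant member. It had 88.3, 85.8 and 83.7 CPM in the control libraries and 137, 135 and 135 CPM in the NFL libraries. The NFL libraries lay within 2 CPM of each other and far from the controls, and the log2 fold change was 0.66 (SE 0.040). Its ratio to H2-Ab1 was 2.45 ± 0.123 with control and 2.91 ± 0.211 with NFL supernatant (SD, n = 3 each).

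Ciita, the transactivator of the class II genes (chromosome 16, 10480059 to 10528418, plus strand), had 17.8, 21.6 and 22.0 CPM with control supernatant and 29.4, 30.1 and 31.6 CPM with NFL supernatant. Control replicate 1 was the lowest library, and the groups were separate (log2 fold change 0.58, SE 0.081). Ciita overlaps Dexi on the opposite strand, which had a mean of 11.3 CPM with control and 12.4 CPM with NFL supernatant (log2 fold change 0.14, edgeR adjusted p = 0.567). The sources used here do not say to which gene such shared reads were assigned.

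Rfx5, the DNA-binding subunit of the RFX complex (chromosome 3, 94954075 to 94961561, plus strand), had 20.6, 19.9 and 20.9 CPM against 23.3, 24.5 and 24.0 CPM. The groups were separate, but the difference was small (log2 fold change 0.22, SE 0.081).

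**Figure D1:**
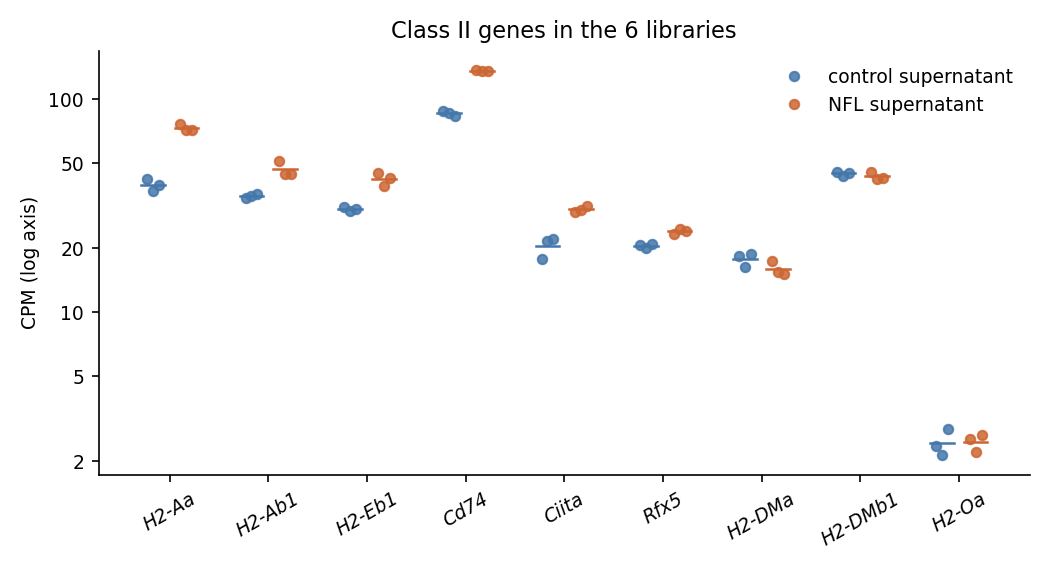
CPM on a log axis for the 9 class II genes with reads, with a point for each of the 3 control and 3 NFL libraries and a line at each group mean. The groups are separate for H2-Aa, H2-Ab1, H2-Eb1, Cd74, Ciita and Rfx5 and overlap for H2-DMa, H2-DMb1 and H2-Oa.

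The H2-DM and H2-O genes had other values. H2-DMa, the α chain of H2-DM, had 18.4, 16.4 and 18.7 CPM with control and 17.4, 15.4 and 15.1 CPM with NFL supernatant (log2 fold change -0.17, SE 0.095). H2-DMb1, a β chain of H2-DM, had 45.7, 43.7 and 45.1 CPM against 45.5, 42.1 and 42.5 CPM (log2 fold change -0.05, SE 0.060). Both genes overlapped between the groups. H2-DMa overlaps the abundant gene Brd2 on the opposite strand (285 and 292 CPM), and H2-DMb1 has a close copy, H2-DMb2, with which it could share reads. With the counts of both copies summed, the log2 difference was 0.02.

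H2-Oa, the α chain of H2-O, had 34 to 69 counts in a library, or 2.13 to 2.82 CPM with control and 2.21 to 2.66 CPM with NFL supernatant. Its log2 fold change of 0.01 had an SE of 0.247, so differences of the size of those of H2-Ab1 or H2-Eb1 would be poorly resolved for this gene. H2-Ob, its β chain, had 0 counts in all 6 libraries. A count of 0 allows up to 3 counts, or 0.122 to 0.188 CPM at these depths (counting error only).

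Of the 10 members, 9 passed the filter on low counts and H2-Ob did not. Among these 9, edgeR placed 5 below the threshold of 0.05 on the adjusted p, all higher with NFL supernatant, where 7.00% of the 14082 genes tested were called in either direction, 3.47% higher and 3.53% lower. Every NFL library exceeded every control library for 6 of the 9 members, against 11.5% of all genes tested. The median log2 fold change of the 9 members was 0.41, and that of all genes tested was -0.000989. These members were chosen for this difference, so their counts describe the set and support nothing further.

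**Figure D2:**
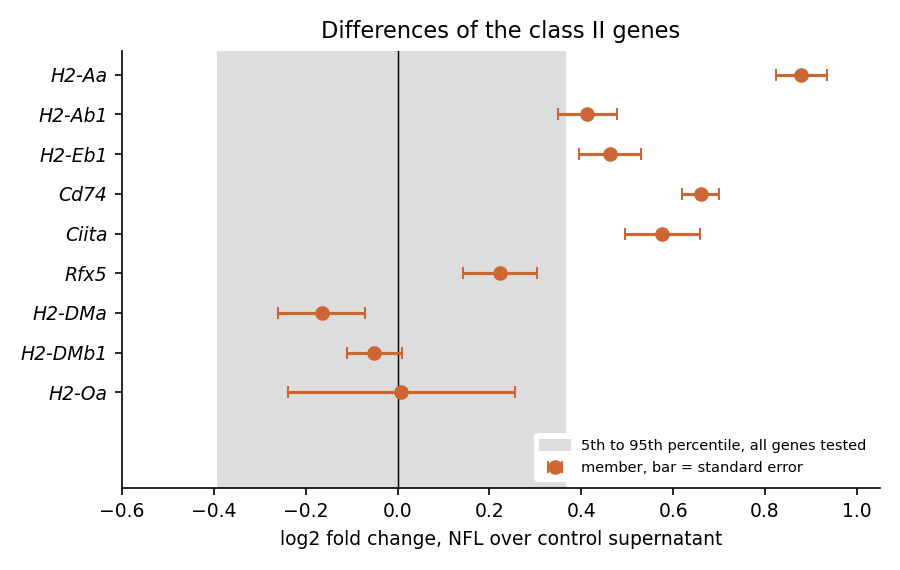
Log2 fold change (NFL over control supernatant) of the 9 class II genes with reads, with bars of 1 SE, over a grey band from the 5th to the 95th percentile of all genes tested (-0.39 to 0.36). H2-Aa, Cd74, Ciita, H2-Eb1 and H2-Ab1 lie above the band, and Rfx5, H2-DMa, H2-DMb1 and H2-Oa lie inside it.

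Levels of different genes were compared per kilobase of annotated exon, which is approximate where a gene has transcripts of different length. With control supernatant Cd74 was highest with 51.2 ± 1.35 CPM per kb, followed by H2-DMb1 with 26.7 ± 0.625, H2-Eb1 with 15.7 ± 0.388, H2-Ab1 with 13.7 ± 0.330 and H2-Aa with 10.4 ± 0.663 CPM per kb (SD, n = 3). H2-DMa had 5.17 ± 0.371, Rfx5 3.73 ± 0.0931, Ciita 2.14 ± 0.241 and H2-Oa 1.73 ± 0.250 CPM per kb, of which the last 2 lay within their spread. With NFL supernatant Cd74 had 80.9 ± 0.572 CPM per kb, H2-Eb1 21.7 ± 1.57, H2-Aa 19.3 ± 0.721 and H2-Ab1 18.3 ± 1.51 (SD, n = 3). H2-Aa and H2-Ab1 then lay within their spread of each other. H2-DMb1 was second in both groups, with 25.8 ± 1.11 CPM per kb with NFL supernatant. H2-DMa and Rfx5, with 4.64 ± 0.365 and 4.36 ± 0.107 CPM per kb, lay within their spread in the NFL group, and Ciita had 3.19 ± 0.118 and H2-Oa 1.75 ± 0.167 CPM per kb. The ratio of H2-Ab1 to H2-DMb1 counts was 0.784 ± 0.0285 with control and 1.08 ± 0.0423 with NFL supernatant (SD, n = 3 each), so presenting chains were more abundant relative to the editor in the NFL libraries.

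The other genes of the pathway were taken from a list of 20, covering further class II chains, the promoter platform, proteases and surface turnover. The table named 19 of them and 16 could be tested. Creb1, which encodes a CREB protein of the platform, rose, and Ifi30, a thiol reductase that opens disulfide bonds of antigens, fell. These 2 calls among 16 genes stand beside 7.00% of all genes tested. The other 14 did not pass the threshold, and the median log2 fold change of the 16 was 0.03. Creb1 was at 211 ± 4.04 CPM in the control and 239 ± 2.78 CPM in the NFL group (SD over 3 libraries, log2 fold change 0.18, SE 0.032, edgeR adjusted p = 1.2e-04). Ifi30 had 184 ± 15.2 CPM against 166 ± 0.574 CPM (log2 fold change -0.15, SE 0.039, edgeR adjusted p = 0.0091). The call for Ifi30 was lost without control replicate 1 (edgeR adjusted p = 0.213) and without NFL replicate 3 (edgeR adjusted p = 0.0754).

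The remaining RFX subunits were not past the threshold. Rfxank had a log2 fold change of 0.09 (SE 0.107, edgeR adjusted p = 0.725) and Rfxap one of -0.03 (SE 0.081, edgeR adjusted p = 0.890). Ctss, cathepsin S, the protease that trims the invariant chain in B cells and dendritic cells, had 0 counts in all 6 libraries, while Ctsl, cathepsin L, which does so in thymic epithelium, had 30.8 to 37.3 CPM. Cd86, a co-stimulatory ligand of antigen-presenting cells, had 1 count in all libraries together.

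The regulators of Ciita, a list of 16 genes, include the interferon-γ axis. Of the 14 that could be tested, Ifng rose, Ifngr1 fell and 12 were not past the threshold, where 7.00% of all genes tested were called. The median of the 14 log2 fold changes was -0.01. Ifng, which encodes interferon-γ, had 10.8, 8.65 and 12.5 CPM with control supernatant and 19.8, 18.7 and 18.5 CPM with NFL supernatant. The groups did not overlap (log2 fold change 0.82, SE 0.106, edgeR adjusted p = 1.2e-07).

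Ifngr1, the ligand-binding chain of its receptor, had 116, 117 and 120 CPM against 92.7, 93.6 and 90.8 CPM (log2 fold change -0.35, SE 0.041, edgeR adjusted p = 8.4e-09). Ifngr2, the signalling chain of the receptor, had at most 5 counts in any library and was not tested. Irf1, a transcription factor induced by interferon-γ, had a log2 fold change of 0.03 (SE 0.066, edgeR adjusted p = 0.859). Spi1, a transcription factor of myeloid and B cells, had at most 9 counts in any library.

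MHC class I genes share the X and Y boxes and are driven by Nlrc5, a relative of Ciita. Of 10 class I genes tested, 3 rose and 7 did not pass the threshold, where 3.47% of all genes tested were called higher, and their median log2 fold change was 0.02. H2-K1, a class I heavy chain, rose from 832 ± 14.1 to 973 ± 10.04 CPM (SD, n = 3 each, log2 fold change 0.23, edgeR adjusted p = 1.1e-08). The other heavy chain on the list, H2-D1, had 855 ± 26.0 against 896 ± 14.2 CPM (SD, n = 3 each). It was not past the threshold (log2 fold change 0.07, SE 0.027, edgeR adjusted p = 0.143). B2m, the class I light chain, rose with a log2 fold change of 0.17 (SE 0.029, edgeR adjusted p = 5.1e-05), and Tapbp, the tapasin gene, with one of 0.14 (SE 0.033, edgeR adjusted p = 0.0044). Nlrc5 was at 88.1 ± 2.28 CPM in the control and 87.1 ± 2.87 CPM in the NFL group (log2 fold change -0.02, SE 0.045, edgeR adjusted p = 0.905).

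**Figure D3:**
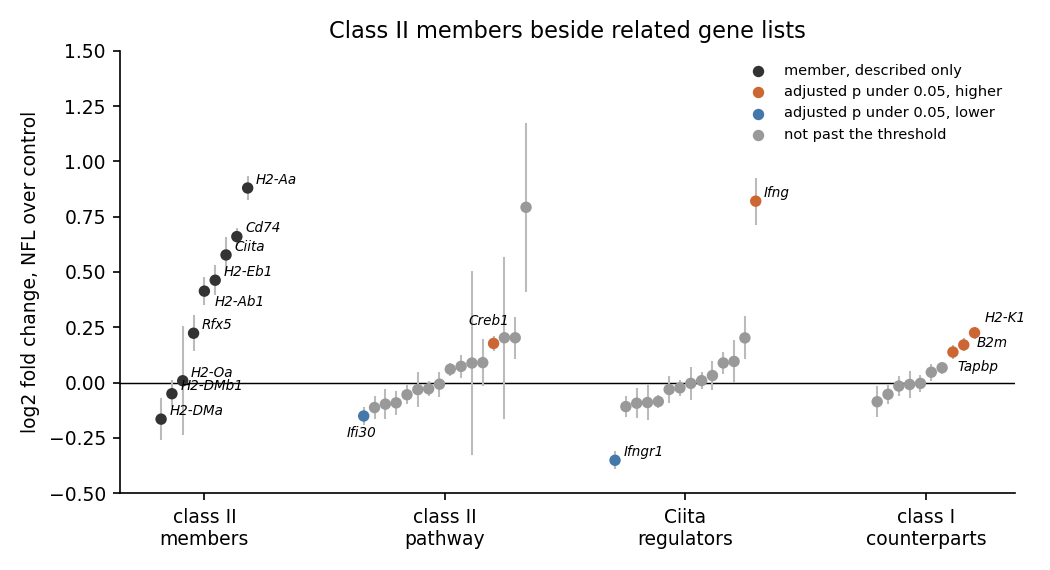
Log2 fold change (NFL over control supernatant) with bars of 1 SE for the class II genes, which are described only, and for tested genes of 3 related lists, each ordered by value. Ifng is the one regulator of Ciita past the threshold that was higher and Ifngr1 the one that was lower, while the class I genes past it changed by 0.14 to 0.23.

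The 7 members named H2 lie together on chromosome 17, from 34092340 to 34316674 in GRCm38, a span of 224 kb that holds 20 annotated genes. Of the 13 other genes of the span, 8 could be tested, among them Tap1, Tap2, Psmb8 and Psmb9 of class I antigen processing and the chromatin reader Brd2. The number past the threshold was 0 of 8 with edgeR, DESeq2 and limma-voom alike, where edgeR called 7.00% of all genes tested, and 1 had an unadjusted edgeR p under 0.05. It was H2-DMb2, with a log2 fold change of 0.20 (SE 0.095, edgeR adjusted p = 0.220). Log2 fold changes of these 8 ran from -0.23 to 0.21. The higher members H2-Ab1, H2-Aa and H2-Eb1 were the last 3 members at one end of this span. H2-Oa, H2-DMa and H2-DMb1 lay toward the other end. The members themselves set the limits of the span, so class II genes outside it were not placed.

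**Figure D4:**
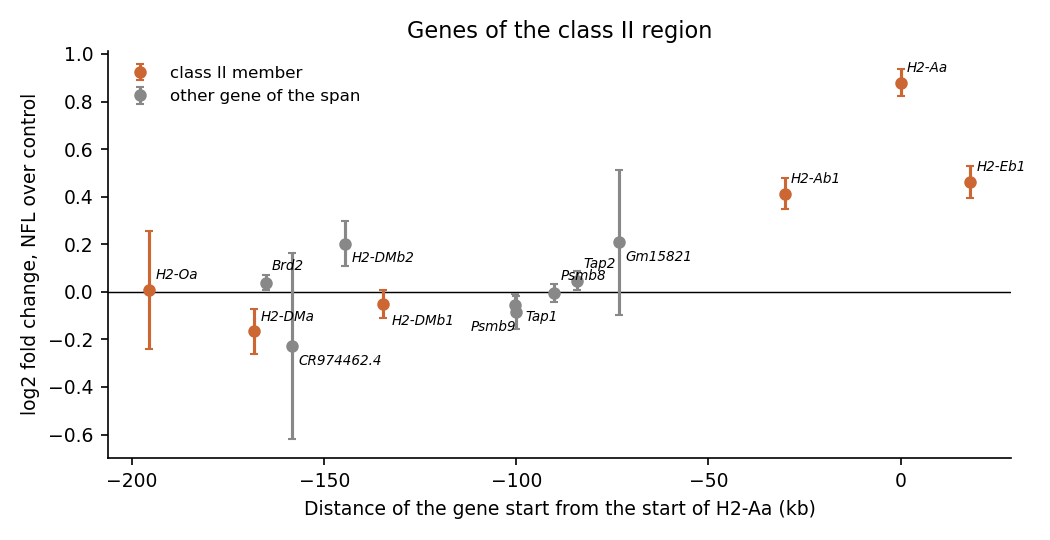
Log2 fold change (NFL over control supernatant) with bars of 1 SE for the 14 genes with enough reads in the span of the class II members, against the distance of each gene's start from that of H2-Aa in kb. H2-Ab1, H2-Aa and H2-Eb1, with values of 0.41 to 0.88, sit at the right end, and the other class II members and the neighbours lie between -0.23 and 0.21.

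The cells were checked against their label. Thy1, a T-cell surface protein, had 1572 to 1707 CPM, Cd3e of the T-cell receptor complex had 49.0 to 64.5 CPM and Cd247 of the same complex 37.7 to 47.0 CPM. Cd3g, Cd3d and Lck were lower, between 2.32 and 8.84 CPM. Cd8a had 3.20 to 4.45 CPM and Cd8b1 0.868 to 1.57 CPM, below Cd4 with 23.3 to 27.6 CPM, although the cells were described as CD8-selected. Cd2 had no counts in any library, and Trbv1 took at least 99.87% of the counts on β-chain variable segments of the T-cell receptor. Of the 9 T-cell markers tested, 1 was lower with NFL supernatant, Cd3e (log2 fold change -0.28, SE 0.056, edgeR adjusted p = 5.7e-04), and none was called higher, where 7.00% of all genes tested were called. The median log2 fold change of the 9 was -0.16, with 7 of them below 0. Total counts were 15843045 to 24639756 per library.

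Markers of the classical class II-expressing cells were also measured. Of 12 B-cell markers, 7 had at most 3 counts in every library, and Ms4a1, Ighm and Blk had none, while Pax5 (8.56 to 10.6 CPM), Cr2 (3.32 to 6.26 CPM), Cd79a and Cd79b (at most 2.21 and 2.04 CPM) were detected. The summed level of the B-cell list was 17.1 to 17.9 CPM with control and 18.5 to 19.7 CPM with NFL supernatant, without overlap, and none of its 4 tested genes was past the threshold. The part of these transcripts in the class II levels was not tested.

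Of 14 macrophage markers, 10 had at most 3 counts in every library, and C1qa, C1qb, C1qc, Itgam, Cd14 and Mrc1 were among those with none. Cd68, Apoe (14.2 to 20.1 CPM) and Mpeg1 (up to 1.04 CPM) were detected, and Cd68 fell (log2 fold change -0.26, SE 0.083, edgeR adjusted p = 0.0494), a call that was lost in 6 of 13 alternatives, among them DESeq2 (adjusted p = 0.0955) and limma-voom (adjusted p = 0.0524). It was also lost without control replicate 1 (edgeR adjusted p = 0.254), without NFL replicate 2 (0.370) and without NFL replicate 3 (0.111). The other 2 of the 3 tested markers were higher but not past the threshold. Apoe had a log2 fold change of 0.21 (SE 0.096, edgeR adjusted p = 0.195) and Mpeg1 one of 0.05 (SE 0.401, edgeR adjusted p = 0.966). The median of the 3 was 0.05. The summed level was 40.5 to 46.0 CPM with control and 40.3 to 42.0 CPM with NFL supernatant. Of 8 dendritic-cell markers, Flt3, Cd209a and Siglech had no counts, Cst3 had 59.0 to 69.8 CPM and Itgax 0.566 to 2.13 CPM, and the summed level was 62.0 to 71.7 CPM against 63.6 to 65.6 CPM. Neither of the 2 tested genes of that list was past the threshold.

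**Figure D5:**
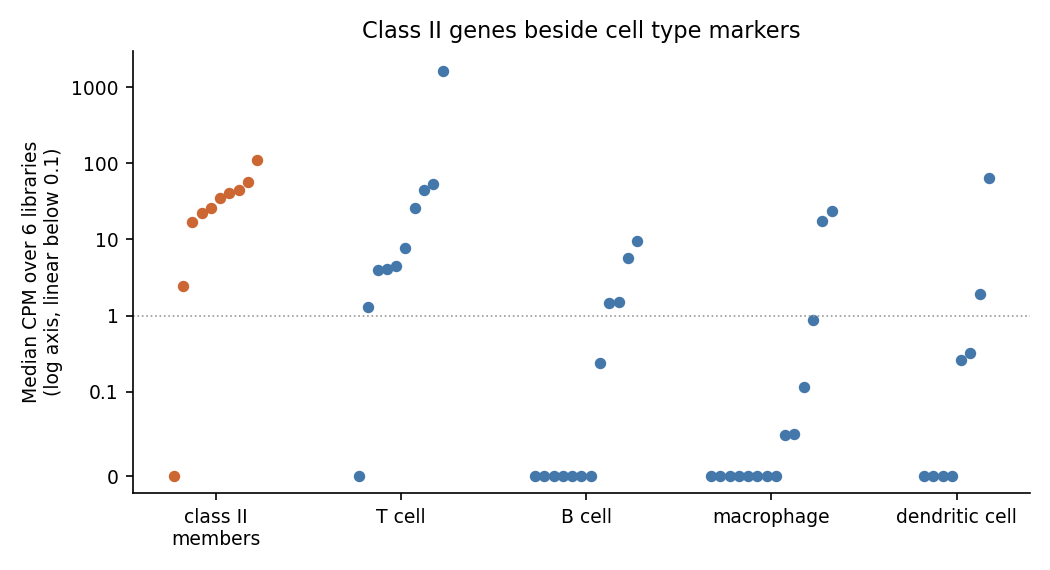
Median CPM over the 6 libraries for the class II genes and for 4 lists of cell type markers, a point per gene, on an axis that is logarithmic above 0.1 and linear below it, with a dotted line at 1 CPM. Except for H2-Ob and H2-Oa, the class II genes lie above 10 CPM, while most B-cell, macrophage and dendritic-cell markers lie at or near 0.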

How the data were processed

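Poly(A) RNA was sequenced in 6 libraries, and the authors deposited 1 table of raw counts per gene, which was used as deposited. For the aligner, counter, annotation and strand setting, details are not given in the sources used here. The submitters' processing notes name GRCm39, R 4.2.1 and limma 3.54.2. No column lacked a sample.

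The members and all gene lists were chosen with earlier results of these data known. Of the gene IDs, 54349 matched GENCODE M21 (GRCm38) with the same version and 792 without it, and 260 had no symbol. Exon lengths and positions came only from identical IDs and are those of GRCm38, since the table holds no coordinates.

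Genes were filtered with filterByExpr (minimum count 10, minimum total 15), leaving 14082, and fitted with edgeR 4.0.16 in R 4.3.3 (TMM scaling, quasi-likelihood test, no covariates). P-values were Benjamini-Hochberg adjusted over all genes tested, with a threshold of 0.05, and the edgeR code was tested on simulated data. The study's methods give no model for these libraries. P-values measure only the spread between these samples.

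Alternatives were DESeq2 1.42.0, limma-voom (limma 3.58.1), other scalings and filters, a replicate block and leaving out each library. The summed H2-DMb copies and the letters GNAAC were added after seeing the data. Figures were drawn with matplotlib 3.10.9.

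The text names all members, every list gene past the threshold, RFX subunits, Nlrc5, the interferon-γ axis and markers above 1 CPM. Some listed genes are not reported here by name. Ctss, Ctsl, Cd86, H2-Ea-ps, H2-Eb2, Ifngr2, Spi1, H2-D1, H2-DMb2, the other region neighbours, Trbv1 and the markers at 0 were named after their values were seen.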

Additional observations from a re-analysis of the deposited data

How the results depend on the processing

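Over 13 alternatives, 3 class I genes were called each time, and 0 region neighbours were called. The regulators of Ciita gave 2 or 3 calls. The median log2 fold change of the members ran from 0.35 (without NFL replicate 1) to 0.45 with 1 library left out. The class II pathway list gave 1 to 2 calls with 1 library left out, and Ifi30 was the call lost without control replicate 1 and without NFL replicate 3. Genes called numbered 508 to 966 with 1 library left out, against 986, with 616 without NFL replicate 2 and 508 without NFL replicate 3, where fewer samples entered the fit. With library size alone, 372 genes were higher and 599 lower, against 489 and 497.

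Replicate numbers were not taken as pairing, since deviations of same-numbered libraries correlated by 0.0147, 0.00972 and 0.00534. Each library correlated best with its own number, but all correlations between the groups lay from -0.0129 to 0.0147. Values this near 0 cannot show whether the libraries were paired. With the replicate block, 1049 genes were called. H2-Oa, with 34 to 69 counts in a library, is limited by depth.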
